A study of Arabidopsis thaliana with 28 samples.

Results

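The Aux/IAA and auxin response factor (ARF) genes of Arabidopsis thaliana were followed in closed flower buds. The 39 genes are 29 Aux/IAA genes (IAA1 to IAA20 and IAA26 to IAA34) and 10 ARF genes (ARF1, ARF2, ARF3, ARF4, ARF5, ARF7, ARF10, ARF16, ARF17 and ARF19), taken by locus identifier from the 27416 genes in the deposited count tables. The genes were listed by family membership, with earlier results of these data known, and all 39 had a row. The ARF list is only a part of that family: ARF6, ARF8 and some other ARF genes were not in it and were not analysed. Polyadenylated RNA was sequenced from 4 genotypes with 2 libraries each: Col, the Columbia control, the mutant ibm1, the double mutant ibm1 jmj27, and the mutant pds5. The labels give no alleles, no plant age and no pooling of plants, and they do not say which PDS5 genes are mutated in pds5. Plants came from long-day or short-day chambers, and the labels do not assign a chamber or an hour of harvest to any library. IBM1 and JMJ27 encode H3K9 demethylases, enzymes that remove a silencing mark from histone H3, and PDS5 proteins are cofactors of cohesin.

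Auxin is perceived by F-box receptors of the TIR1/AFB family, which bind an Aux/IAA protein through its degron and send it to the proteasome. Aux/IAA proteins hold ARF transcription factors in check by recruiting TOPLESS (TPL) corepressors, so their loss releases ARF target genes. Many Aux/IAA genes are themselves early targets of auxin, which makes their transcripts a widely used gauge of the response. In flowers the pathway is known for organ initiation, gynoecium patterning and stamen and pollen development. The Aux/IAA genes were divided by textbook knowledge into 13 with a well-known early transcriptional response to auxin (IAA1 to IAA6, IAA11, IAA13, IAA14, IAA19, IAA20, IAA29 and IAA30) and 16 others, for which that response is weaker, absent or less certain. No auxin treatment was part of the study.

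Library totals ran from 19490663 to 26038662 counts. Levels are CPM, the count of a gene in each 1000000 counts of the scaled library, and differences are log2 fold changes with their standard error (SE) from the edgeR quasi-likelihood test. The threshold for a change was an adjusted p of 0.05 (Benjamini-Hochberg, 21548 genes tested). All p-values rest on the spread between 2 libraries a genotype, pooled over the genotypes in the fit. That spread may be technical, since nothing in the labels says that the libraries came from separate plants. It was unequal, with a chi-square per degree of freedom of 14.4 for ibm1 jmj27, 5.6 for pds5, 2.89 for Col and 2.3 for ibm1. A pooled spread can therefore be too low for ibm1 jmj27 and too high for ibm1. The 3 comparisons with Col share the same Col libraries, so their outcomes are not independent. IBM1 stood at 52.5 and 55.5 CPM in Col, 21.2 and 20 in ibm1, 18.8 and 21.4 in ibm1 jmj27, and 55.7 and 53.8 in pds5. JMJ27 stood at 64 and 64.7, 69.1 and 77.7, 8.35 and 8.4, and 60.3 and 61.3 CPM in that order, and PDS5A at 236 and 249, 107 and 111, 215 and 249, and 3.3 and 3.51 CPM. IBM1 and JMJ27 were low where the labels name their mutants. PDS5A was low in pds5, whose label names no single PDS5 gene, and was also lower in ibm1 (-1.15 ± 0.0828). In pds5 PDS5B, PDS5C and PDS5E differed from Col by -3.91, -1.84 and -0.88, and PDS5D by 0.1 (adjusted p = 0.249). The 7 flower markers (AP1, AP3, PI, AG, SEP1, SEP2 and SEP3) had counts in every library. Their summed level ran from 1050 CPM in ibm1 to 1310 CPM in pds5, a sum that hides markers moving apart. In pds5 mean levels of PI and SEP2 went from 164 and 112 CPM in Col to 298 and 187. Those of AG and AP1 went from 104 and 269 CPM to 63 and 204. Of the 7 flower markers 1 fell in ibm1, and 3 rose and 2 fell in each of ibm1 jmj27 and pds5. These are 14.3%, 71.4% and 71.4% of them, beside 31.0%, 50.5% and 49.0% of all genes. Summed levels of 7 tapetum markers were 1090 to 1280 CPM in Col, 719 to 733 in ibm1, 720 to 993 in ibm1 jmj27 and 393 to 527 in pds5. Of these markers 5 fell in ibm1, where 14.5% of all genes did, 2 in ibm1 jmj27, where 23.8% did, and 7 in pds5, where 23.2% did. Summed levels of 5 late pollen markers were 106 to 108, 46.3 to 47.5, 12.6 to 13.3 and 104 to 128 CPM from Col to pds5, most of it VGD1 in Col, and MGH3 was at 0 counts in ibm1 jmj27 replicate 2. Of these 5 markers 3 fell and ANX1 rose in ibm1, 4 fell in ibm1 jmj27, where ANX1 had a log2 fold change of 0.06 (adjusted p = 0.728), and BUPS1 rose in pds5. Summed levels of 5 green tissue markers, all of which rose in each mutant, were 2500 to 2580, 6110 to 6320, 8580 to 10100 and 6230 to 6580 CPM. The clock gene LHY was 2.74 ± 0.117, 7.39 ± 0.112 and 7.68 ± 0.113 above Col on the log2 scale in the 3 mutants, taken in that sequence. In whole buds fewer cells of a type and less RNA per cell cannot be told apart, and the part of these shifts in the results that follow was not tested.

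Of the 39 genes, 37 had enough counts to be tested. IAA6 had 0 to 7 counts in a library and IAA34 had 1 to 14, with 14 and 9 in the pds5 libraries, and neither was tested. In ibm1 11 of 37 genes passed, 2 higher and 9 lower, where 31.0% of all genes tested passed (16.5% higher and 14.5% lower). In ibm1 jmj27 18 of 37 passed, 10 higher and 8 lower, where 50.5% of all genes passed (26.7% higher and 23.8% lower). In pds5 25 of 37 passed, 18 higher and 7 lower, where 49.0% of all genes passed (25.8% higher and 23.2% lower). All 18 that rose in pds5 were Aux/IAA genes, and the 10 ARF genes held 0 risen and 4 fallen members there in the edgeR test. With the DESeq2 Wald test 0 ARF genes rose in pds5, and 0 lay above Col at an unadjusted p under 0.05. The risen count in ibm1 rested on each library, being 0 or 1 when any 1 of the 4 was left out, and in ibm1 jmj27 it was 6 without Col replicate 2.

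**Figure D1:**
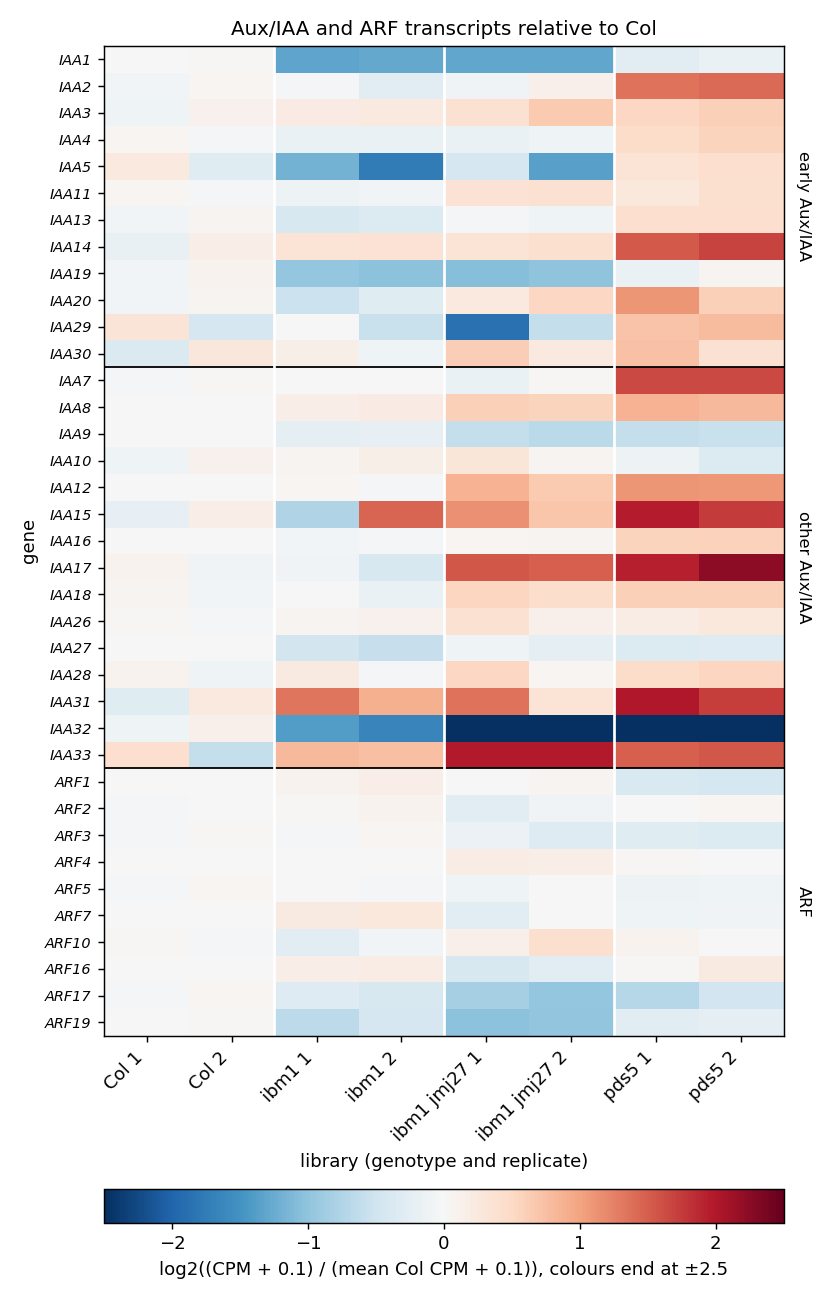
Level of each of the 37 tested genes (rows) in each of the 8 libraries (columns), as log2 of CPM plus 0.1 relative to the Col mean plus 0.1. Red is higher and blue lower than Col, and IAA32 lies beyond the blue end of the scale in ibm1 jmj27 and pds5. The red block in the pds5 columns is made of Aux/IAA genes.

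Among the 3 comparisons with Col, the medians of the subgroups stood furthest apart in pds5. Of 12 early Aux/IAA genes tested, 7 rose and 0 fell in pds5, with a median log2 fold change of 0.53. Of 15 other Aux/IAA genes, 11 rose and 3 fell, with a median of 0.6. The 10 ARF genes had a median of -0.11, and the median of all genes tested was 0. In ibm1 the early genes held 0 risen and 4 fallen members with a median of -0.23, the others 1 and 3 with a median of 0.01, and the ARF genes 1 and 2 with a median of 0.01, beside 0.02 for all genes. In ibm1 jmj27 the counts were 2 and 2 for the early genes (median -0.03), 6 and 2 for the others (median 0.32) and 2 and 4 for the ARF genes (median -0.15), beside 0.03 for all genes. Of the early genes tested 33.3%, 33.3% and 58.3% passed in ibm1, ibm1 jmj27 and pds5, and of the others 26.7%, 53.3% and 93.3%. The ARF genes that passed were 3, 6 and 4 of 10, beside 31.0%, 50.5% and 49.0% of all genes. The shares in ibm1 lay near that background, and the ARF share in pds5 lay below it. Without Col replicate 2 the ARF genes held 0 risen and 1 fallen in ibm1, 0 and 2 in ibm1 jmj27 and 0 and 2 in pds5. The risen ARF count was also 0 without Col replicate 1, with DESeq2 size factors and with the DESeq2 Wald test in ibm1 and ibm1 jmj27, without either ibm1 library in ibm1, and with both genotypes fitted alone in ibm1 jmj27, while it was 2 in ibm1 with both fitted alone. The 1 risen gene of the other Aux/IAA genes in ibm1 became 0 without Col replicate 2 or either ibm1 library and with the Wald test, and 3 with both genotypes fitted alone. The 2 risen early genes in ibm1 jmj27 became 1 without Col replicate 2, with the Wald test and with both genotypes fitted alone. The early genes held 0 risen in ibm1 and 0 fallen in pds5 by edgeR, also with the DESeq2 Wald test and at an unadjusted p under 0.05. The subgroups were not tested against each other. The summed level of the 13 early genes was 148 and 154 CPM in the Col libraries, 123 in each ibm1 library, 138 and 145 in ibm1 jmj27, and 209 and 220 in pds5. That sum weighs long and abundant transcripts most.

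**Figure D2:**
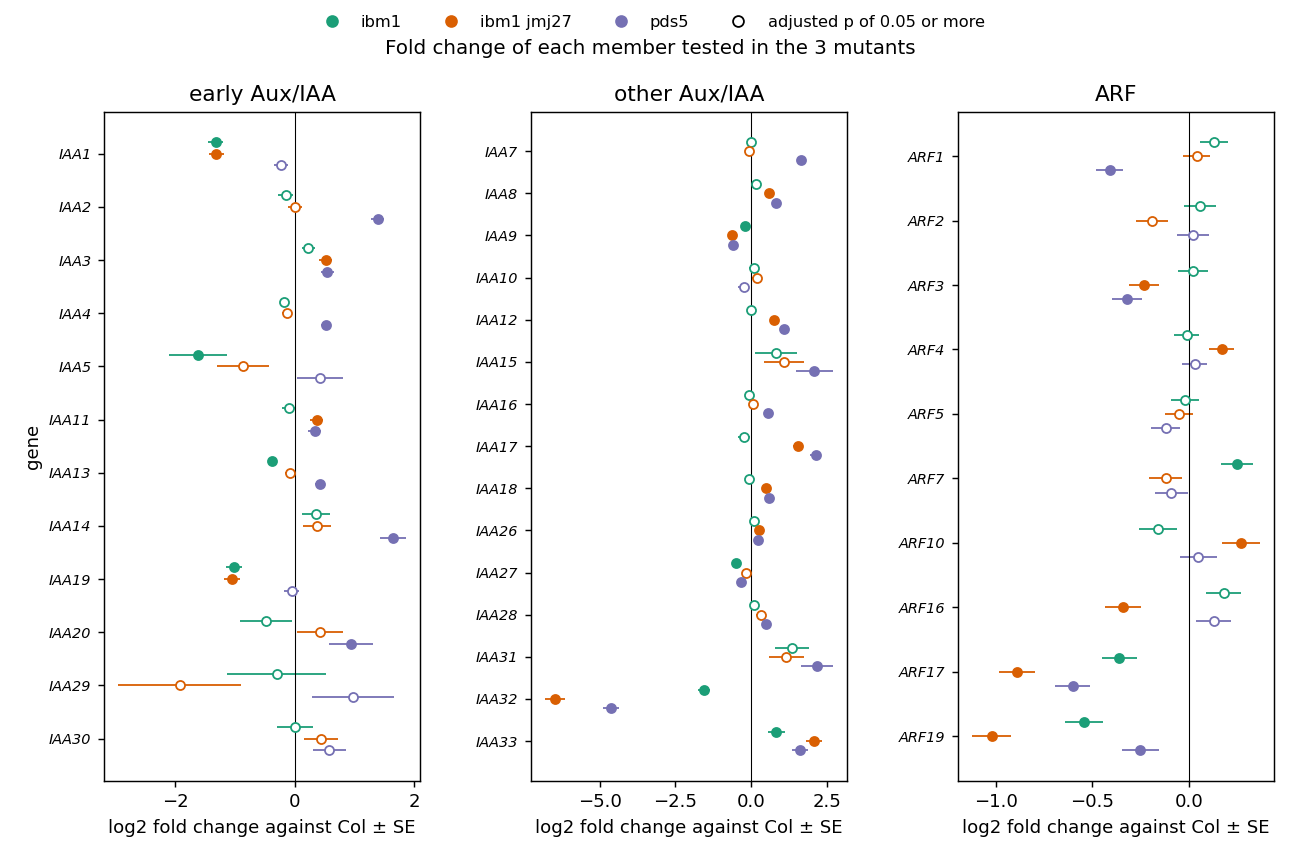
Log2 fold change against Col with its SE for each tested gene, in 3 panels with different x axes, coloured by mutant. Filled points passed the test. In the ARF panel no purple filled point (pds5) lies to the right of 0, whereas most of those in the Aux/IAA panels do.

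Among the early Aux/IAA genes, IAA1 and IAA19 were lower in both genotypes that carry ibm1. IAA1 (AT4G14560), a repressor induced by auxin within minutes, stood at 15.0 and 15.5 CPM in Col, 6.03 and 6.19 in ibm1, 6.13 and 6.16 in ibm1 jmj27, and 12.4 and 13.6 in pds5. The libraries with ibm1 lay well below Col, and the pds5 libraries lay between them. In ibm1 IAA1 fell by 1.32 ± 0.126 (adjusted p = 3.83e-06; log2 fold change), and by 1.31 ± 0.124 in ibm1 jmj27 (adjusted p = 1.2e-06), and its difference in pds5 was -0.23 ± 0.115 (adjusted p = 0.11). IAA19 (AT3G15540), known as MSG2 for its part in tropic growth and stamen filament elongation, stood at 13.5 and 15.0 CPM in Col, 7.22 and 6.93 in ibm1, 6.75 and 7 in ibm1 jmj27, and 12.7 and 14.9 in pds5. Its ibm1 and ibm1 jmj27 libraries all lay below both Col libraries, and its pds5 range overlapped that of Col. IAA19 fell by 1.01 ± 0.133 in ibm1 (adjusted p = 7.09e-05) and by 1.05 ± 0.132 in ibm1 jmj27 (adjusted p = 1.77e-05), and stood at -0.05 ± 0.123 in pds5 (adjusted p = 0.766). These calls of IAA1 and IAA19 held under every alternative run.

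Neither gene passed between the double and the single mutant. The difference of ibm1 jmj27 from ibm1 was 0.01 ± 0.136 for IAA1 (adjusted p = 0.967) and -0.04 ± 0.141 for IAA19 (adjusted p = 0.825). Against pds5 both were lower in ibm1 jmj27, by -1.08 ± 0.124 (adjusted p = 1.64e-05) and -1 ± 0.131 (adjusted p = 4.69e-05) on the log2 scale.

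IAA5 (AT1G15580), a close relative of IAA19, was scarce, with 29 and 23 counts in Col, 11 and 6 in ibm1, 23 and 9 in ibm1 jmj27, and 42 and 41 in pds5. In CPM all libraries of ibm1 and ibm1 jmj27 lay below Col, and those of pds5 (1.59 and 1.68) lay above Col (1.48 and 0.98). IAA5 fell by 1.62 ± 0.484 in ibm1 (adjusted p = 0.0215), a call that ended without Col replicate 1, ibm1 replicate 1 or ibm1 replicate 2 (adjusted p = 0.0614 to 0.152). In ibm1 jmj27 it stood at -0.86 ± 0.435 (adjusted p = 0.117), which passed at -1.53 without ibm1 jmj27 replicate 1 (adjusted p = 0.0328). The gene overlaps CYCA2;3, a cyclin gene at 43 CPM in Col, whose own difference in ibm1 was 0.1 (adjusted p = 0.39).

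IAA13 (AT2G33310), a partner of the activator ARF5 with its sister IAA12, went opposite ways in ibm1 and pds5. It stood at 32.0 and 35.2 CPM in Col, 25.5 and 26.6 in ibm1, 32.7 and 31.1 in ibm1 jmj27, and 44.8 and 45.2 in pds5. No ibm1 or pds5 library overlapped Col, while ibm1 jmj27 did. IAA13 fell by 0.37 ± 0.0803 in ibm1 (adjusted p = 0.00341, or 0.059 without Col replicate 2) and rose by 0.42 ± 0.0766 in pds5 (adjusted p = 0.00049).

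IAA2 and IAA14 were high in pds5 alone among the 4 genotypes. IAA2 (AT3G23030), the sister of IAA1, stood at 11.7 and 12.7 CPM in Col, 12.0 and 10.0 in ibm1, 11.4 and 13.4 in ibm1 jmj27, and 31.5 and 32.8 in pds5. The first 3 genotypes overlapped and the pds5 libraries stood above them all. IAA2 rose by 1.39 ± 0.114 on the log2 scale in pds5 (adjusted p = 2.72e-07), and ibm1 jmj27 differed from pds5 by -1.38 ± 0.113 (adjusted p = 6.44e-07). IAA14 (AT4G14550), known as SLR and needed for control of lateral root formation, stood at 1.63 and 2.13 CPM in Col, 2.42 and 2.46 in ibm1, 2.41 and 2.52 in ibm1 jmj27, and 5.61 and 6.29 in pds5. It rose by 1.65 ± 0.213 in pds5 (adjusted p = 2.44e-05), while its differences of 0.36 in ibm1 and 0.38 in ibm1 jmj27 did not pass. IAA4 (AT5G43700) had a smaller difference of the same kind, from 40.8 and 38.2 CPM in Col to 54.7 and 58.2 in pds5, a rise of 0.52 ± 0.072 (adjusted p = 4.83e-05).

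IAA3 (AT1G04240), known as SHY2 for its part in root and light responses, rose in ibm1 jmj27 and pds5. It stood at 16.6 and 19.4 CPM in Col, 20.9 and 21.4 in ibm1, 23.6 and 28.5 in ibm1 jmj27, and 25.9 and 27.2 in pds5. All mutant libraries lay above the Col libraries, and the log2 fold change was 0.52 ± 0.109 in ibm1 jmj27 (adjusted p = 0.00129) and 0.55 ± 0.108 in pds5 (adjusted p = 0.000809), against 0.23 ± 0.111 in ibm1, which did not pass (adjusted p = 0.139). IAA11 (AT4G28640) was at 12.0 and 11.2 CPM in Col, 10.6 and 11.1 in ibm1, 14.9 and 15.1 in ibm1 jmj27, and 14.0 and 15.4 in pds5. It rose by 0.37 ± 0.111 in ibm1 jmj27 (adjusted p = 0.0131) and by 0.34 ± 0.11 in pds5 (adjusted p = 0.0201). The first call ended without Col replicate 2 (adjusted p = 0.107) and with both genotypes fitted alone (adjusted p = 0.051). The second ended without Col replicate 1 (adjusted p = 0.0503), Col replicate 2 (adjusted p = 0.142) or pds5 replicate 2 (adjusted p = 0.149), and both ended with the DESeq2 Wald test.

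The remaining early genes were scarce. IAA20 (AT2G46990), whose protein lacks the degron, had 15 and 20 counts in Col, 12 and 13 in ibm1, 25 and 26 in ibm1 jmj27, and 49 and 31 in pds5. It rose by 0.94 ± 0.365 in pds5 (adjusted p = 0.0458), a call that ended without Col replicate 1, Col replicate 2 or pds5 replicate 1 (adjusted p = 0.135 to 0.31), with no filter on low counts (adjusted p = 0.0564) and with the DESeq2 Wald test (adjusted p = 0.145). IAA30 (AT3G62100), its sister, did not pass in any mutant, with 1.53 and 2.43 CPM in Col and 3.37 and 2.61 in pds5. IAA29 (AT4G32280), known as a target of light-signalling factors as well as auxin, had 0 to 13 counts in a library. It did not pass against Col in any mutant, although it stood at -5.61 in ibm1 jmj27 without replicate 2 of that genotype (adjusted p = 0.0262), where the lone library had 0 counts.

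**Figure D3:**
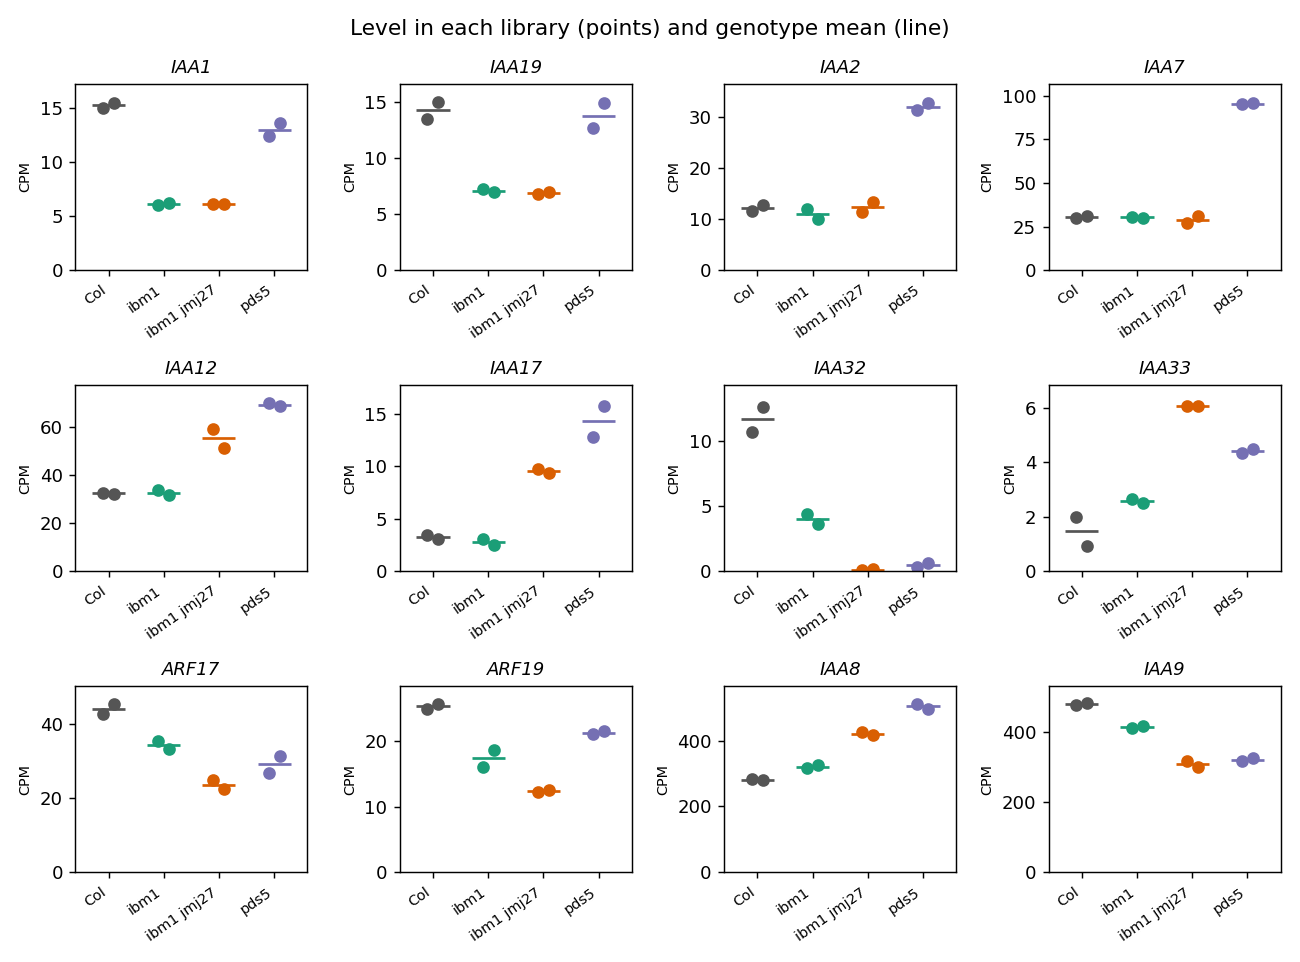
CPM in each library (points) and genotype mean (line) for 12 of the genes, with every y axis starting at 0. IAA1 and IAA19 are low in ibm1 and ibm1 jmj27, IAA2 and IAA7 are high in pds5, and IAA32 is near 0 in ibm1 jmj27 and pds5.

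The largest difference in the family was the fall of IAA32 (AT2G01200), a member without the degron that is known from growth control in the apical hook. It had 210 and 295 counts in Col, 99 and 74 in ibm1, 3 and 3 in ibm1 jmj27, and 9 and 15 in pds5, or 10.7 and 12.6, 4.36 and 3.64, 0.116 and 0.140, and 0.341 and 0.613 CPM. The 4 genotypes did not overlap and stood in the order Col, ibm1, pds5 and ibm1 jmj27. IAA32 fell in all 3 mutants, with log2 fold changes of -1.54 ± 0.196 in ibm1 (adjusted p = 5.35e-05), -6.46 ± 0.332 in ibm1 jmj27 (adjusted p = 2.12e-09) and -4.61 ± 0.262 in pds5 (adjusted p = 6.25e-09). The difference of ibm1 jmj27 from ibm1 was -4.92 ± 0.376 (adjusted p = 2.52e-07). That from pds5 was -1.85 ± 0.55 (adjusted p = 0.0164), and it ended without ibm1 jmj27 replicate 1 (adjusted p = 0.069) or pds5 replicate 2 (adjusted p = 0.139). IAA32 overlaps the gene AT2G01210, which stood at 20.8 CPM in Col and 17 in ibm1 jmj27 (-0.29, adjusted p = 0.0585), and which fell in pds5 by 0.67 (adjusted p = 0.000543).

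IAA33 (AT5G57420), another member without the degron, rose while IAA32 fell. It stood at 1.99 and 0.938 CPM in Col, 2.64 and 2.51 in ibm1, 6.06 and 6.07 in ibm1 jmj27, and 4.32 and 4.49 in pds5. All mutant libraries lay above the Col libraries, which were far apart themselves. IAA33 rose by 2.08 ± 0.265 in ibm1 jmj27 (adjusted p = 2.11e-05) and by 1.62 ± 0.271 in pds5 (adjusted p = 0.000236). Its rise of 0.84 ± 0.293 in ibm1 (adjusted p = 0.0421) stood at 0.37 without Col replicate 2 (adjusted p = 0.394) and also ended without ibm1 replicate 1 (adjusted p = 0.171) or ibm1 replicate 2 (adjusted p = 0.134) and with the DESeq2 Wald test (adjusted p = 0.071). The share of all genes that passed in the same direction in all 3 mutants was not computed, so the following count has no background. IAA33 was 1 of 5 members that did so. The others were IAA32, IAA9, ARF17 and ARF19, which all fell. Without Col replicate 2 only IAA32 met this, and 3 genes did without Col replicate 1 or with the DESeq2 Wald test. Without ibm1 replicate 2 the ibm1 calls of IAA33, IAA9 and ARF17 ended.

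IAA17 and IAA12 rose in ibm1 jmj27 and pds5 and did not pass in ibm1. IAA17 (AT1G04250), known as AXR3 from auxin-resistant mutants, stood at 3.47 and 3.07 CPM in Col, 3.08 and 2.46 in ibm1, 9.74 and 9.38 in ibm1 jmj27, and 12.8 and 15.8 in pds5. Col and ibm1 overlapped, and the other genotypes lay far above them. IAA17 rose by 1.55 ± 0.175 (adjusted p = 6.41e-06) and 2.13 ± 0.17 (adjusted p = 2.09e-07) on the log2 scale, and ibm1 jmj27 exceeded ibm1 by 1.78 ± 0.179 (adjusted p = 3.59e-06). IAA12 (AT1G04550), known as BODENLOS and the repressor partner of ARF5 in the embryo, stood at 32.6 and 32.2 CPM in Col, 33.7 and 31.6 in ibm1, 59.2 and 51.2 in ibm1 jmj27, and 69.8 and 68.5 in pds5. Its rises were 0.77 ± 0.081 (adjusted p = 3.34e-06) and 1.09 ± 0.0802 (adjusted p = 8.94e-08). In ibm1 it stood at 0.01 ± 0.0839 (adjusted p = 0.934).

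IAA8, IAA9 and IAA27 form 1 branch of the family, yet IAA8 rose where IAA9 fell. IAA8 (AT2G22670), with a known part in flower organ development, stood at 283 and 280 CPM in Col, 316 and 325 in ibm1, 426 and 416 in ibm1 jmj27, and 512 and 495 in pds5. IAA9 (AT5G65670), whose tomato counterpart restrains fruit set, stood at 478 and 484 CPM in Col, 412 and 418 in ibm1, 318 and 302 in ibm1 jmj27, and 318 and 326 in pds5. No mutant library overlapped Col for either gene. IAA8 rose by 0.58 ± 0.0741 in ibm1 jmj27 (adjusted p = 2.13e-05) and by 0.84 ± 0.0743 in pds5 (adjusted p = 6.04e-07), and its 0.18 in ibm1 did not pass in the joint fit (adjusted p = 0.0739), though it did with both genotypes fitted alone (adjusted p = 0.00128). IAA9 fell by 0.63 ± 0.0747 (adjusted p = 9.65e-06) and 0.58 ± 0.0746 (adjusted p = 2.26e-05) in the same mutants. Its fall of 0.21 ± 0.0743 in ibm1 (adjusted p = 0.0437) ended without any 1 of the 4 libraries (adjusted p = 0.153 to 0.212) and with no filter on low counts (adjusted p = 0.053). IAA27 (AT4G29080), known as PAP2 from its binding to phytochrome, stood at 64.5 and 64.0 CPM in Col, 46.7 and 43.3 in ibm1, 59.8 and 54.4 in ibm1 jmj27, and 50.9 and 51.3 in pds5. It fell by 0.51 ± 0.0731 in ibm1 (adjusted p = 0.000137) and by 0.33 ± 0.0719 in pds5 (adjusted p = 0.00176), whereas -0.17 in ibm1 jmj27 did not pass (adjusted p = 0.063) and passed at -0.24 without ibm1 jmj27 replicate 1 (adjusted p = 0.0083) and at -0.2 with DESeq2 size factors (adjusted p = 0.0342). IAA27 overlaps AT4G29070, which rose in all 3 mutants, by 0.55, 0.58 and 0.9 (adjusted p = 0.000827, 0.000228 and 3.55e-06).

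IAA7, IAA16, IAA15 and IAA31 rose in pds5 and passed in neither of the other mutants. IAA7 (AT3G23050), known as AXR2 from dwarf auxin-resistant mutants, was added to the genes described in full after its values were seen. It stood at 29.7 and 30.9 CPM in Col, 30.3 and 30.1 in ibm1, 27.0 and 30.8 in ibm1 jmj27, and 95.4 and 95.7 in pds5. Only the pds5 libraries stood apart, with a rise of 1.66 ± 0.0761 (adjusted p = 7.29e-10) against Col and a difference of ibm1 jmj27 from pds5 of -1.73 ± 0.076 (adjusted p = 1.26e-09). IAA16 (AT3G04730), a relative of IAA7, stood at 105 and 103 CPM in Col and 154 and 155 in pds5, a rise of 0.57 ± 0.0665 (adjusted p = 9.16e-06). IAA15 (AT1G80390) had 6 and 10 counts in Col, 4 and 24 in ibm1, 24 and 14 in ibm1 jmj27, and 45 and 36 in pds5. Its rise of 2.09 ± 0.603 in pds5 (adjusted p = 0.0115) ended without either Col library or pds5 replicate 1 (adjusted p = 0.0552 to 0.0851). IAA31 (AT3G17600), a relative of IAA20 and IAA30, had 4 and 8 counts in Col, 19 and 12 in ibm1, 22 and 8 in ibm1 jmj27, and 37 and 28 in pds5, where it rose by 2.18 ± 0.519 (adjusted p = 0.00337). In ibm1 it stood at 1.35 and passed with both genotypes fitted alone (adjusted p = 0.0479). In ibm1 jmj27 it stood at 1.16 and passed without replicate 2 of that genotype (adjusted p = 0.029).

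Of the rest, IAA18 (AT1G51950), a regulator of embryo and root patterning, rose by 0.49 ± 0.0865 in ibm1 jmj27 (adjusted p = 0.000367) and by 0.6 ± 0.0858 in pds5 (adjusted p = 6.22e-05), from 26.3 and 24.1 CPM in Col to 36.4 and 34.2 and to 38.0 and 38.2. IAA26 (AT3G16500), known as PAP1, rose by 0.26 ± 0.0835 (adjusted p = 0.0198) and 0.22 ± 0.0833 (adjusted p = 0.0392) in the same mutants. Its call in ibm1 jmj27 ended without either Col library or ibm1 jmj27 replicate 1 (adjusted p = 0.0583 to 0.152) and with both genotypes fitted alone (adjusted p = 0.107), and that in pds5 without any 1 of the 4 libraries (adjusted p = 0.0705 to 0.223). Both ended with the DESeq2 Wald test (adjusted p = 0.064 and 0.0916). IAA28 (AT5G25890), a repressor of lateral root founder cells, rose by 0.51 ± 0.142 in pds5 (adjusted p = 0.0101), a call that ended without Col replicate 2 (adjusted p = 0.11) or pds5 replicate 2 (adjusted p = 0.0525). In ibm1 jmj27 it stood at 0.32 and passed at 0.52 without replicate 2 of that genotype (adjusted p = 0.000788). IAA10 (AT1G04100), at 5.00 and 5.80 CPM in Col, passed in no mutant against Col.

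Among the ARF genes, ARF19 and ARF17 had the largest differences from Col. ARF19 (AT1G19220), an activator that acts with ARF7 in lateral root formation, stood at 24.9 and 25.6 CPM in Col, 16.0 and 18.7 in ibm1, 12.3 and 12.6 in ibm1 jmj27, and 21.0 and 21.5 in pds5. The genotypes did not overlap. ARF19 fell by 0.54 ± 0.0981 in ibm1 (adjusted p = 0.000949), by 1.02 ± 0.101 in ibm1 jmj27 (adjusted p = 1.69e-06) and by 0.25 ± 0.0951 in pds5 (adjusted p = 0.044). The last call ended without any 1 of the 4 libraries (adjusted p = 0.107 to 0.183) and with the DESeq2 Wald test (adjusted p = 0.125). The double mutant was lower than ibm1 by -0.48 ± 0.104 (adjusted p = 0.00192) and than pds5 by -0.77 ± 0.101 (adjusted p = 4.58e-05).

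ARF17 (AT1G77850), a repressor under control of the microRNA miR160 that is needed for pollen wall formation, stood at 42.6 and 45.3 CPM in Col, 35.3 and 33.3 in ibm1, 24.8 and 22.5 in ibm1 jmj27, and 26.7 and 31.4 in pds5. All mutant libraries lay below Col, and those of ibm1 jmj27 were the lowest. ARF17 fell by 0.36 ± 0.0907 in ibm1 (adjusted p = 0.00866), by 0.89 ± 0.0929 in ibm1 jmj27 (adjusted p = 2.98e-06) and by 0.6 ± 0.0908 in pds5 (adjusted p = 0.000101). The call in ibm1 ended without Col replicate 2 or ibm1 replicate 2 (adjusted p = 0.0817 to 0.0871). The tapetum marker sum was lower than in Col in each of these mutants, and its part in the fall of ARF17 was not tested. The other targets of miR160 went opposite ways in ibm1 jmj27. ARF10 (AT2G28350), at 37.7 and 36.1 CPM in Col and 40.4 and 49.0 in ibm1 jmj27, rose there by 0.27 ± 0.0964 (adjusted p = 0.0294), and ARF16 (AT4G30080), at 24.8 and 25.2 CPM in Col and 19.0 and 20.7 in ibm1 jmj27, fell by 0.34 ± 0.0936 (adjusted p = 0.00859). The ARF10 call ended without either Col library or ibm1 jmj27 replicate 2 (adjusted p = 0.0789 to 0.218) and with DESeq2 size factors, the DESeq2 Wald test or both genotypes fitted alone (adjusted p = 0.0506 to 0.101), and that of ARF16 without Col replicate 2 (adjusted p = 0.0541). Neither passed in ibm1 or pds5.

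ARF2, ARF3 and ARF4 share control by small interfering RNAs of the TAS3 loci. ARF3 (AT2G33860), known as ETTIN for its part in gynoecium patterning, stood at 126 and 133 CPM in Col, 128 and 135 in ibm1, 117 and 104 in ibm1 jmj27, and 106 and 102 in pds5. It fell by 0.23 ± 0.077 in ibm1 jmj27 (adjusted p = 0.0244) and by 0.32 ± 0.077 in pds5 (adjusted p = 0.00378). The first call ended without either Col library or ibm1 jmj27 replicate 2 (adjusted p = 0.0533 to 0.174) and with both genotypes fitted alone (adjusted p = 0.0545), and the second without Col replicate 2 (adjusted p = 0.0544). ARF4 (AT5G60450), at 72.1 and 71.4 CPM in Col and 81.1 and 80.6 in ibm1 jmj27, rose by 0.17 ± 0.0638 (adjusted p = 0.0361), which ended without Col replicate 1 (adjusted p = 0.131) or Col replicate 2 (adjusted p = 0.173). It also ended with DESeq2 size factors, no filter, the DESeq2 Wald test or both genotypes fitted alone (adjusted p = 0.0592 to 0.207). ARF2 (AT5G62000), which limits organ growth and promotes senescence, stood at 415 and 426 CPM in Col and did not pass in any mutant. In ibm1 jmj27 it stood at -0.19 ± 0.0833, which passed with the DESeq2 Wald test (-0.21, adjusted p = 0.0355) and at -0.29 without replicate 2 of that genotype (adjusted p = 0.000343).

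ARF1 (AT1G59750), a repressor that acts with ARF2 in flower senescence, fell in pds5 by 0.41 ± 0.0715 (adjusted p = 0.000321), from 136 and 138 CPM in Col to 105 and 101. It overlaps MTR4, an RNA helicase gene, which fell there by 0.4 (adjusted p = 0.000614). The activator ARF7 (AT5G20730) rose in ibm1 by 0.25 ± 0.0842 (adjusted p = 0.0379), from 62.6 and 62.1 to 73.0 and 75.2 CPM, a call that ended without any 1 of the 4 libraries (adjusted p = 0.124 to 0.237) and with DESeq2 size factors (adjusted p = 0.0627) or the DESeq2 Wald test (adjusted p = 0.122). Its overlapping neighbour CPN20, a chaperonin gene, fell there by 0.26 (adjusted p = 0.0209). In ibm1 jmj27 ARF7 stood at -0.12 and passed at -0.27 without replicate 2 of that genotype (adjusted p = 0.00199). ARF5 (AT1G19850), known as MONOPTEROS and needed for flower initiation, stood at 143 and 152 CPM in Col, 147 and 143 in ibm1, 136 and 148 in ibm1 jmj27, and 135 and 137 in pds5, and passed in no comparison.

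Many Aux/IAA genes were lower in ibm1 jmj27 than in pds5 when these mutants were compared directly. Of 37 genes, 17 were lower and 1 was higher in ibm1 jmj27, where 39.9% of all genes tested passed (19.1% higher and 20.7% lower). The higher one was ARF1 (0.45 ± 0.0713, adjusted p = 0.000261), and the count of higher genes was 4 without ibm1 jmj27 replicate 2 and 2 without ibm1 jmj27 replicate 1. Of 12 early genes 8 were lower, with a median of -0.83, and of 15 others 6 were lower, with a median of -0.26. The ARF genes had 3 lower and a median of 0.02, beside 0 for all genes. LHY differed between these genotypes by -0.29 ± 0.0752. That call ended with both genotypes fitted alone (adjusted p = 0.0678) and without pds5 replicate 1, where LHY stood at -0.28. Of 4 clock genes (LHY, CCA1, TOC1 and GI), 3 were lower and 0 higher in ibm1 jmj27. The mean level of CCA1 was 193 CPM in ibm1 jmj27 and 380 in pds5. The part of the clock in the member differences was not tested. Against ibm1 alone, ibm1 jmj27 had 11 higher and 8 lower genes, where 45.5% of all genes passed (22.7% higher and 22.8% lower). The higher count was 7 without ibm1 replicate 1. Of 27 Aux/IAA genes 9 were higher and 2 lower, and of 10 ARF genes 2 were higher and 6 lower, ARF19, ARF17, ARF16 and ARF7 among them. The ARF counts were 0 and 5 without ibm1 replicate 1, 1 and 4 without ibm1 replicate 2 or with both genotypes fitted alone, and 1 and 6 with the DESeq2 Wald test.

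Gene order placed 3 pairs of members side by side, IAA2 and IAA7 on chromosome 3, IAA14 and IAA1 on chromosome 4, and IAA3 and IAA17 on chromosome 1. IAA2 and IAA7 had like differences in every mutant (-0.15 and -0.01, 0.01 and -0.07, and 1.39 and 1.66). IAA14 and IAA1 did not, standing at 0.36 and -1.32 in ibm1, 0.38 and -1.31 in ibm1 jmj27 and 1.65 and -0.23 in pds5. IAA3 and IAA17 stood at 0.23 and -0.23, 0.52 and 1.55, and 0.55 and 2.13. Sister genes also parted: IAA1 and IAA2 stood at -1.32 and -0.15, -1.31 and 0.01, and -0.23 and 1.39 in the 3 mutants, and IAA8 and IAA9 had opposite signs in all 3. ARF19 was lower than in Col in each mutant where its sister ARF7 was 0.25, -0.12 and -0.09. These pairs were picked after the values were seen, and differences between genes were not tested.

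**Figure D4:**
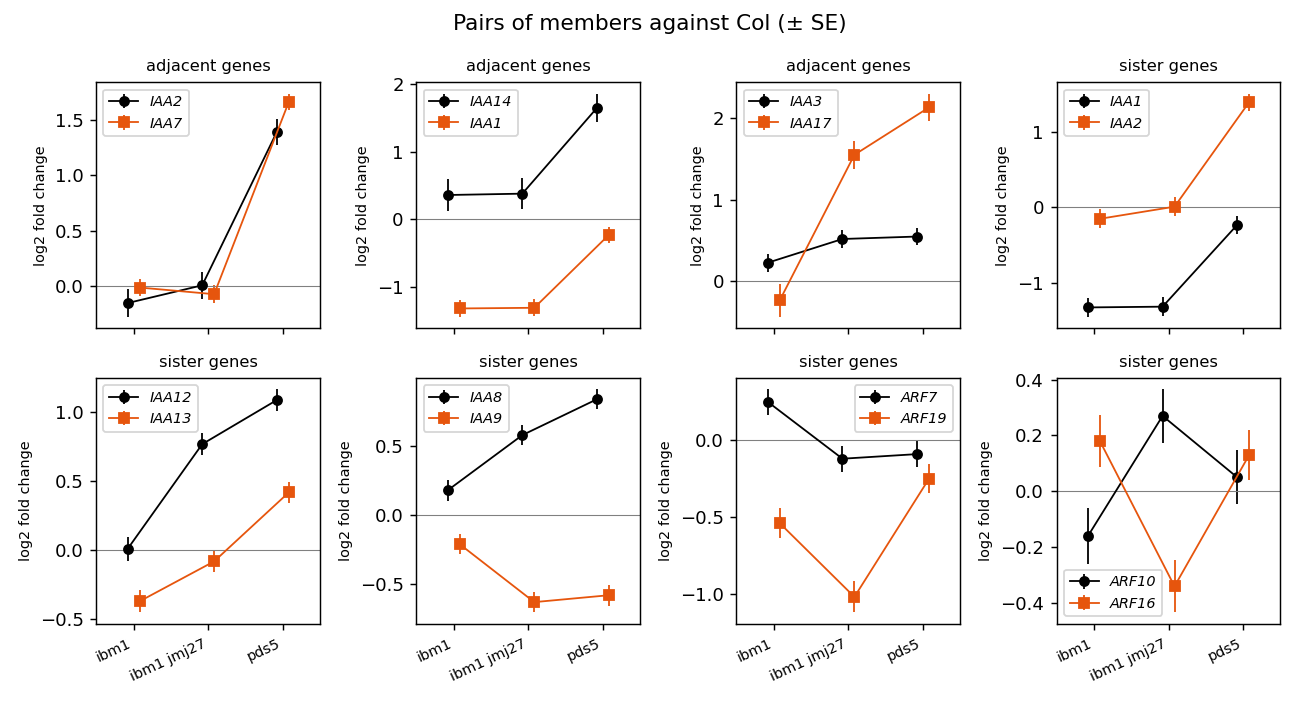
Log2 fold change against Col with its SE in the 3 mutants for 3 pairs of adjacent genes and 5 pairs of sister genes, with a y axis of its own in each panel. IAA2 and IAA7 run together, at 1.39 and 1.66 in pds5, while IAA8 lies above and IAA9 below 0 throughout.

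Other genes of the pathway were read from 6 lists with 58 genes, of which 49 were tested. In ibm1 6 rose and 13 fell, in ibm1 jmj27 10 and 13, and in pds5 11 and 13, with medians of -0.02, -0.06 and -0.03. These are 38.8%, 46.9% and 49.0% of the genes tested, beside 31.0%, 50.5% and 49.0% of all genes, so the shares in the last 2 mutants lay near the background. The counts in ibm1 were 1 to 2 risen and 8 to 10 fallen without any 1 of the 4 libraries, and 2 risen with the DESeq2 Wald test. In pds5 7 rose without Col replicate 2. Of the 6 TIR1/AFB receptor genes, 0 passed in ibm1 by edgeR and 0 by the DESeq2 Wald test, and 1 was higher at an unadjusted p under 0.05. That gene, TIR1, stood at 0.19 ± 0.0702 (adjusted p = 0.0527) and passed with both genotypes fitted alone (adjusted p = 0.00387). In ibm1 jmj27 2 rose, AFB2 by 0.51 ± 0.0733 (adjusted p = 6.55e-05) and AFB3 by 0.34 ± 0.0702 (adjusted p = 0.00115), and 1 fell (0 without ibm1 jmj27 replicate 1). In pds5 3 rose, with AFB5 at 0.35 ± 0.0689 (adjusted p = 0.0008) and AFB2 at 0.31 ± 0.0735 (adjusted p = 0.00358), and 1 fell (0 without pds5 replicate 2). The risen receptor count in pds5 was 2 with the DESeq2 Wald test, and it also dropped without some single libraries. Over all genes 26.7% rose and 23.8% fell in ibm1 jmj27, and 25.8% and 23.2% in pds5. Of the 5 TPL corepressor genes, 4 fell in ibm1 jmj27, 3 in pds5 and 1 in ibm1, where 14.5% of all genes fell. In each mutant 0 rose (0 also by the DESeq2 Wald test and at an unadjusted p under 0.05). The fallen corepressor count in ibm1 jmj27 was 3 with both genotypes fitted alone, and it also moved without some single libraries. With both genotypes fitted alone TPL passed, lower in ibm1 (-0.14, adjusted p = 0.00973) and higher in pds5 (0.13, adjusted p = 0.0405). TPR3 fell by 0.49 ± 0.0984, 1.13 ± 0.101 and 0.45 ± 0.0976 (adjusted p = 0.0021, 8.43e-07 and 0.00176), and TPR1 by 0.48 ± 0.0674 in ibm1 jmj27 and 0.6 ± 0.0674 in pds5 (adjusted p = 4.81e-05 and 6.47e-06). TPR2 fell in pds5 by 0.36 ± 0.0754 (adjusted p = 0.0014).

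GH3 enzymes couple auxin to amino acids, and many of their genes are induced by it. Of 6 GH3 genes tested, 4 fell and 1 rose in ibm1, 4 and 1 in ibm1 jmj27, and 3 and 1 in pds5. Over all genes 14.5% fell and 16.5% rose in ibm1, 23.8% and 26.7% in ibm1 jmj27, and 23.2% and 25.8% in pds5. The risen count in ibm1 was 0 without any 1 of the 4 libraries, and 0 with DESeq2 size factors or the DESeq2 Wald test. The auxin oxidase gene DAO1 rose by 0.39 ± 0.127 in ibm1 jmj27 (adjusted p = 0.0201) and fell by 0.4 ± 0.132 in pds5 (adjusted p = 0.0215). The first call ended without Col replicate 1, Col replicate 2 or ibm1 jmj27 replicate 1, at 0.33, 0.45 and 0.23. It also ended with the DESeq2 Wald test (adjusted p = 0.0774) and with both genotypes fitted alone (adjusted p = 0.0698). The second call ended without Col replicate 2 or pds5 replicate 1, at -0.34 and -0.35. GH3.6 fell by 1.25 ± 0.0957, 1.31 ± 0.0953 and 0.94 ± 0.0924 (adjusted p = 4.99e-07, 7.84e-08 and 1.66e-06). GH3.3 fell by 1.3 ± 0.13 in ibm1 (adjusted p = 6.17e-06) and GH3.5 by 1.65 ± 0.123 in ibm1 jmj27 (adjusted p = 1.49e-07). GH3.17 rose in pds5 by 1.44 ± 0.177 (adjusted p = 1.5e-05). Risen early Aux/IAA genes and fallen GH3 genes thus occurred in the same pds5 libraries.

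SAUR genes, small early auxin-induced growth genes, held 2 risen and 0 fallen of 8 tested in ibm1, 2 and 1 in ibm1 jmj27, and 3 and 0 in pds5. Those that passed, 25.0%, 37.5% and 37.5%, were a smaller share than the 31.0%, 50.5% and 49.0% of all genes. The risen count in ibm1 was 0 with the DESeq2 Wald test, 1 without Col replicate 2 and 0 without any other of the 4 libraries, and that in pds5 was 1 without Col replicate 2. The risen count in ibm1 jmj27 was 1 without either Col library, and the fallen count there was 0 without Col replicate 1 or ibm1 jmj27 replicate 1. SAUR63 rose by 0.65 ± 0.199, 1.41 ± 0.187 and 1.85 ± 0.182 (adjusted p = 0.0239, 3.04e-05 and 1.74e-06). Its call in ibm1 ended without Col replicate 1, ibm1 replicate 1 or ibm1 replicate 2 (adjusted p = 0.0696 to 0.171). SAUR15 had 0 and 1 counts in Col and 11 and 6 in ibm1 (adjusted p = 0.0314), a call that ended without any 1 of the 4 libraries (adjusted p = 0.0702 to 0.169). In pds5 it had 6 and 14 counts (adjusted p = 0.0183, or 0.0594 to 0.144 without Col replicate 1, Col replicate 2 or pds5 replicate 2). SAUR21 rose in ibm1 jmj27 by 0.52 ± 0.202 (adjusted p = 0.0442). That call ended with DESeq2 size factors (adjusted p = 0.053) and with no filter on low counts (adjusted p = 0.0582). It ended too with the DESeq2 Wald test (adjusted p = 0.156) and with both genotypes fitted alone (adjusted p = 0.117). Without Col replicate 1, Col replicate 2 or ibm1 jmj27 replicate 1 it also ended, at 0.43, 0.63 and 0.37. SAUR23 rose in pds5 by 1.2 ± 0.299 (adjusted p = 0.00441), and stood at 0.77 without Col replicate 2 (adjusted p = 0.0803). SAUR63 and the neighbours SAUR21 and SAUR23 have near-identical copies, so their counts are uncertain. Of 8 auxin synthesis genes tested of 14, 2 fell in ibm1, the YUCCA genes YUC2 by 0.81 ± 0.224 (adjusted p = 0.0144) and YUC6 by 0.56 ± 0.137 (adjusted p = 0.00722). YUC2 did not pass without Col replicate 2, ibm1 replicate 1 or ibm1 replicate 2 (adjusted p = 0.0656 to 0.11), nor YUC6 without Col replicate 1 (adjusted p = 0.0709) or ibm1 replicate 1 (adjusted p = 0.115). By edgeR 0 synthesis genes passed in ibm1 jmj27, as by the DESeq2 Wald test, with 1 lower at an unadjusted p under 0.05. There 1 was lower with DESeq2 size factors or without ibm1 jmj27 replicate 1, and 2 were higher without ibm1 jmj27 replicate 2. TAR2 fell in pds5 by 0.48 ± 0.089 (adjusted p = 0.000499). Of 15 transport genes, 3 rose and 6 fell in ibm1, 4 and 3 in ibm1 jmj27 and 4 and 4 in pds5. These are 60.0%, 46.7% and 53.3% of the list, and the synthesis genes that passed were 25.0%, 0% and 12.5% of theirs, beside the shares over all genes given above. Without any 1 of the 4 libraries the ibm1 counts were 1 risen and 3 or 4 fallen, and without Col replicate 2 those in ibm1 jmj27 were 3 and 1. The influx carrier gene LAX1 fell by 0.72 ± 0.089, 1.2 ± 0.0911 and 0.95 ± 0.0891 (adjusted p = 4.28e-05, 1.19e-07 and 1.01e-06), and the efflux carrier gene PIN3 rose by 0.76 ± 0.109, 0.75 ± 0.108 and 1.44 ± 0.105 (adjusted p = 0.000155, 6.98e-05 and 1.06e-07).

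**Figure D5:**
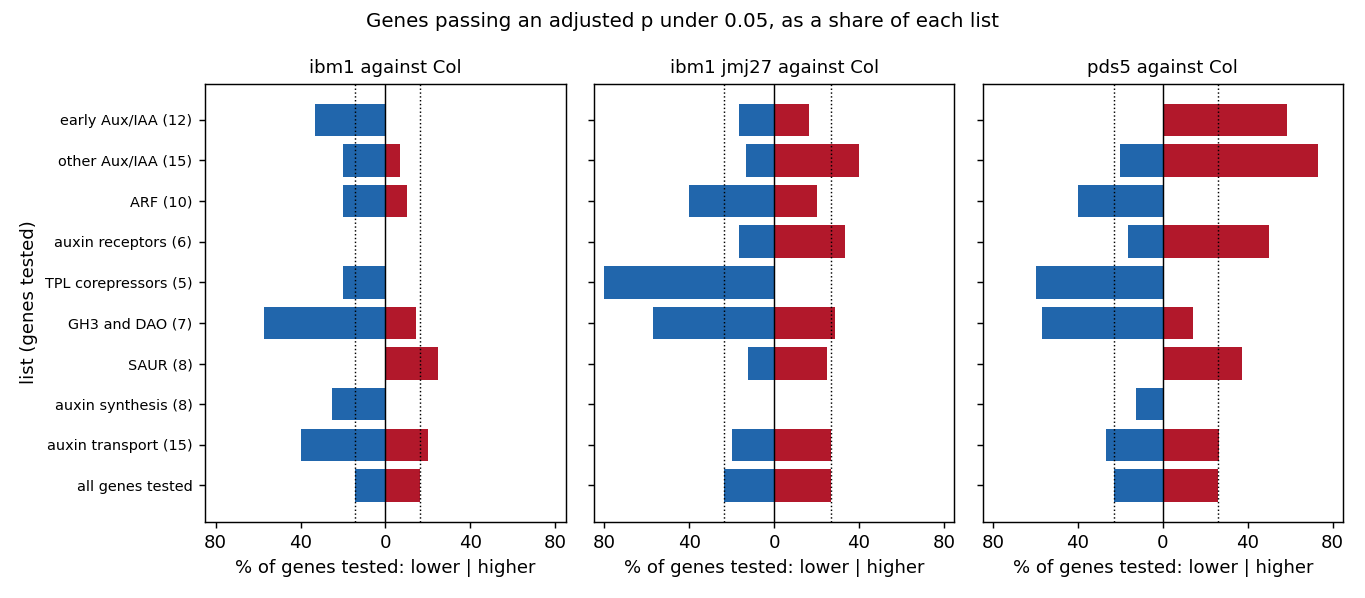
Share of the tested genes of each list that passed, higher to the right in red and lower to the left in blue, for each mutant against Col. Numbers beside the list names are genes tested, and dotted lines mark the shares over all genes tested. In pds5 the bars of both Aux/IAA groups pass the dotted line on the higher side, and the ARF bar has no higher part.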

How the data were processed

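The authors deposited unnormalized read counts of each gene in 3 tables, each with the 2 Col libraries and the 2 libraries of 1 mutant. The submitters' processing notes name TAIR10 as the build and HISAT2, Subread and DESeq2 as tools. For their versions, the annotation, the strand setting and reads with several hits, nothing is stated in the sources used here. Overlapping genes (13 of the 39 members, by a RefSeq table of TAIR10.1 used for names and gene order only) therefore have uncertain counts. The Col columns were identical in all tables, and 0 columns were left unmapped. The 20 chromatin immunoprecipitation and input samples were not analysed here.

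One model of all 8 libraries was fitted in edgeR 4.0.16 under R 4.3.3 (TMM scaling, filterByExpr, robust quasi-likelihood test, a mean per genotype, 4 residual degrees of freedom). The code was also run on simulated counts with a single spread for all genes and genotypes. That run cannot show how the test fares where the spread differs between genotypes, as it does here. Each SE was obtained by dividing the size of the log2 fold change by the root of its F statistic. Described in full were up to 4 passing members with the largest change per subgroup and mutant, and of each pathway list up to 2 with the smallest p. Members and lists were chosen with earlier results of these data known.

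Alternatives were DESeq2 size factors, no filter, the DESeq2 1.42.0 Wald test, both genotypes fitted alone, a replicate block, each library left out, and a minimum absolute log2 fold change of 1.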

Additional observations from a re-analysis of the deposited data

How the results depend on the processing

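Of 91 calls of members over the 5 comparisons, 60 kept their direction and their side of the threshold under every other fit and with each library left out, and no call changed sign. Requiring an absolute log2 fold change of at least 1 left 0 higher and 4 lower members in ibm1, 2 and 4 in ibm1 jmj27 and 8 and 1 in pds5 against Col, 2 and 1 in ibm1 jmj27 against ibm1, and 0 and 8 against pds5, since this threshold removes smaller changes by construction. The 2 higher members in ibm1 became 1 with DESeq2 size factors, 0 with the DESeq2 Wald test and 5 with both genotypes fitted alone, and the 10 higher in ibm1 jmj27 became 6 with the Wald test and 6 with both fitted alone. A fit of both genotypes alone takes the spread from those genotypes only. The cause of these changes, and the part of the unequal spread in them, was not tested. Leaving out 1 library gave 0 to 1 higher members in ibm1, 6 to 11 in ibm1 jmj27 and 13 to 15 in pds5 against Col, 7 to 12 in ibm1 jmj27 against ibm1, and 1 to 4 against pds5.

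Replicate numbers did not pair the libraries: correlations of the replicate differences between genotypes, across genes, were -0.01 to 0.1. With a replicate block 17 members were higher and 7 lower in pds5, 11 and 9 in ibm1 jmj27 and 2 and 9 in ibm1 against Col. With it the calls of IAA20 in pds5 (adjusted p = 0.0579) and of SAUR21 and SAUR22 in ibm1 jmj27 (adjusted p = 0.0524 and 0.0572) ended, IAA27 and IAA28 passed in ibm1 jmj27 (adjusted p = 0.0495 and 0.0445), ARF2 passed between ibm1 jmj27 and pds5 (adjusted p = 0.0389), TIR1 and JMJ27 passed in ibm1 (adjusted p = 0.0457 and 0.0492), and TAA1 passed in pds5 (adjusted p = 0.0277). The scalings moved the median of all genes by at most 0.03 on the log2 scale. With 1 library left out, the lone library is assumed to vary like the others. Low counts limit IAA5, IAA6, IAA15, IAA20, IAA29, IAA31 and IAA34.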
